A study of Mus musculus with 24 samples.

Results

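RAW264.7 is a mouse macrophage-like line from a virus-induced tumour. The comparison described here sets resting RAW264.7 cells labelled as overexpressing Tbc1d23 against resting RAW264.7 cells that carry a construct for chloramphenicol acetyltransferase (CAT), a bacterial enzyme used as the control insert. Its members are 6 of the 24 arrays in the series, chosen by the label of 0 h of lipopolysaccharide (LPS): 3 arrays of the Tbc1d23 line and 3 of the CAT line. The remaining 18 arrays hold the same pair of lines after 1, 3 or 5 h of LPS at 20 ng/ml, again with 3 arrays per line and time. Both lines were kept in medium with G418 at 400 ug/ml, so the selection drug was common to all groups. There was 1 line per construct, and whether a line was a clone or a pool, and which promoter drives the insert and which stretch of the Tbc1d23 transcript it holds, the sources used here do not give. The design text calls the replicates biological without saying that they were separate cultures, so p-values measure only the spread between these samples.

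TBC1D23 belongs to the TBC domain family, most of whose members switch off Rab GTPases, the small GTP-binding proteins that give each membrane compartment its identity. TBC1D23 itself is known as an adaptor at the trans-Golgi, where it binds golgins that capture vesicles arriving from endosomes and also binds the WASH complex on those vesicles. Macrophages depend on this traffic for lysosome supply, receptor display and secretion. The question was which transcripts differed between the lines before any stimulus.

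Levels are given throughout as log2 of the array's processed signal minus the 75th percentile of that array, so 0 is a signal as bright as that percentile. A line difference is the mean level of the Tbc1d23 line minus that of the CAT line, and its ± is the standard error that limma gives, with n = 3 arrays per line. A called gene is one whose p in that fit, adjusted by Benjamini and Hochberg, was below 0.05. An exact permutation test of 3 arrays against 3 cannot go below 0.10, so the p-values rest on limma's shared estimate of spread. Levels of different genes come from different probes and are not compared with each other.

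The 3 arrays of the Tbc1d23 line were less alike than those of the CAT line. Well above background were 69.5, 42.1 and 57.5% of probes on the Tbc1d23 arrays, against 51.0, 51.1 and 53.3% on the CAT arrays. Correlations between replicate arrays were 0.970 to 0.982 in the Tbc1d23 line and 0.989 to 0.993 in the CAT line. Each of the 6 slides of the series held the 4 times of 1 replicate of 1 line. The slides' serial numbers form 2 runs: replicates 1 and 2 of the Tbc1d23 line lie in run 1, and its replicate 3 lies in run 2 with all CAT slides. Values within run 2 therefore set 1 Tbc1d23 array against 3 CAT arrays, and they are given beside the results below. Slide and line cannot be told apart beyond that. All 10 macrophage-defining markers were well above background on every array of both lines. Their log2 summed level was 10.16 to 10.66 in the Tbc1d23 line and 10.57 to 10.66 in the CAT line. That sum follows the brightest probes, above all Lyz2, at 9.49, 9.74 and 10.09 in the Tbc1d23 line. Called lower were 4 of the 10 (40.0%, against 21.7% of all genes): Adgre1, Spi1, Csf1r and Tyrobp (−0.96). Called higher were 2 (20.0%, against 25.1%): Itgam and Cd14.

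The array carries 4 probes named Tbc1d23, and at rest neither probe that could be tested was called different between the lines. The brighter, at chr16:57169122-57169181 (mm9, minus strand), read 3.05, 3.20 and 3.57 in the Tbc1d23 line, against 2.95, 3.43 and 3.34 in the CAT line. These levels overlap, and the difference was 0.03 ± 0.21 (limma adjusted p = 0.922). The other tested probe covers an exon junction, since its 60 bases span 1242 bases of the genome (chr16:57170528-57171769, mm9, minus strand); it is shown because it was the 1 tested Tbc1d23 probe that was called at later times.
Tbc1d23 junction probe: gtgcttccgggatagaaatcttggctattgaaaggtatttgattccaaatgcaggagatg
It read −0.27, −0.23 and −0.37 in the Tbc1d23 line, against −1.04, −0.66 and −0.26 in the CAT line, and replicate 3 of the CAT line lies among the Tbc1d23 arrays. The difference at rest was 0.36 ± 0.18 (adjusted p = 0.104). The same probe was called higher in the Tbc1d23 line after 3 h of LPS, by 1.00 (adjusted p = 0.000103), and after 5 h, by 0.48 (adjusted p = 0.0287). Of the other probes, 1 was well above background on 1 array of each line and 1 on no array. Since the sources used here do not give the construct's extent, it is not known which of these probes would read its RNA, and the directions below rest on the lines as labelled.

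Of 13928 genes tested, 6513 were called, which is 46.8%. Called higher in the Tbc1d23 line were 3491 (25.1%) and called lower were 3022 (21.7%), and 2469 genes (17.7%) were called and differed at least 2-fold. Those percentages are the background against which each gene list below is to be read. Past 2-fold stood 1365 higher and 1104 lower genes, past 4-fold 401 and 261, past 8-fold 181 and 86, and past 16-fold 90 and 29. The median line difference over all genes was 0.06, with quartiles of −0.43 and 0.52. In 7416 genes (53.2%) the arrays of the lines did not overlap. Among these were 6312 of the 6513 called genes, so arrays lying apart in a called gene named below add little to its call. In such bulk samples, fewer cells with a transcript and less of it per cell cannot be told apart.

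The split between higher and lower genes moved with the scaling. It was 3491 to 3022 on the 75th percentile scale, 3129 to 4053 after quantile normalization and 3276 to 3544 with the percentile taken over probes bright on all 24 arrays. Under median scaling it was 685 to 3904, with the median of all genes at −0.50. Within slide run 2 it was 2837 to 2191, with the median at 0.15; the Tbc1d23 line has 1 array per time there, which is assumed to vary like the CAT arrays. Median scaling subtracts 1 value per array, so it moves every gene's difference by nearly the same amount. A list's place relative to all genes is therefore kept by construction, and only signs and calls can change. The value of a list under median scaling is to be read against −0.50, and within the run against 0.15. Of the 250 called genes named below, 39 were no longer called under median scaling, and 3 more, Eng, Sc5d and Tal1, changed sign. The 39, all higher on the 75th percentile scale, were Bag3, Car2, Cd14, Cfp, Chac1, Clec4e, Clec5a, Cpd, Ctse, Ctsl, Cxcl10, Dnaja1, Epor, Golga4, Hk1, Hsp90aa1, Hspa5, Hyou1, Ifi44, Il7r, Itgam, Lilrb4a, Ly96, Me1, Msr1, Mx2, Nfil3, Nfkbiz, Pdia4, Rab21, Rab4a, Rab6a, Sigirr, Slc2a1, Sqstm1, Tbc1d2, Tcf4, Txnrd1 and Vegfa. List medians were also taken over genes well above background on all 6 arrays, over the mean of each gene's probes, and after normexp background correction with outlying backgrounds replaced, the last chosen after seeing the data. These are given below where they moved a median clearly away from the value first given.

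The genes with the largest differences are named by rank, among called genes that were well above background on all 6 arrays, whose lines did not overlap and whose tested probes were all called in 1 direction. That the arrays lie apart in these genes is thus part of how they were chosen, and the list members described further on were chosen for the size of their difference. Rab15, an endosomal Rab GTPase, led those higher in the Tbc1d23 line (probe at chr12:77898991-77899050, mm9). It read 4.59, 4.81 and 5.23 in the Tbc1d23 line, against −2.51, −3.23 and −3.29 in the CAT line, a 237-fold difference (adjusted p = 2.07e-14). Chst1, a sulfotransferase of keratan sulfate synthesis, read 5.93, 6.05 and 6.16 in the Tbc1d23 line, against −0.07, −0.81 and −0.87 in the CAT line, or 99.1-fold. Rhod, a small GTPase of endosome movement, was 81.9-fold higher and all 3 of its tested probes were called in that direction.

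The next 12 were 49.2- to 24.8-fold higher in the Tbc1d23 line. Acsbg1, an acyl-CoA synthetase, was 49.2-fold higher and Serinc2, of the serine incorporator family, 48.1-fold. Ctsh, the lysosomal protease cathepsin H, read 4.12, 4.18 and 4.79 in the Tbc1d23 line, against −1.56, −0.91 and −0.95 in the CAT line. Dmwd, a WD repeat gene, was 44-fold higher. Ccl4, the chemokine MIP-1β, read 7.68, 7.83 and 7.71 in the Tbc1d23 line, against 2.50, 2.71 and 2.50 in the CAT line, or 36-fold. Snai2, the zinc finger factor Slug, and Dntt, the terminal transferase of lymphoid precursors, followed at 32.9- and 32.1-fold. Dock9, an exchange factor for Cdc42, and Cnnm1, of the cyclin M transporter family, were 30.2- and 29.8-fold higher. Slc40a1, the iron exporter ferroportin, was 27-fold higher, Slpi, a secreted inhibitor of leukocyte proteases, 25.6-fold, and Paqr5, a membrane progestin receptor, 24.8-fold.

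The 15 genes lowest in the Tbc1d23 line were 21.1- to 11.4-fold lower, and several are surface receptors of myeloid cells. Clec4a2, an inhibitory C-type lectin, read −0.75, −0.66 and −0.41 in the Tbc1d23 line, against 3.80, 3.90 and 3.69 in the CAT line (adjusted p = 8.32e-15). Cybb, the gp91phox subunit that carries electrons in the phagocyte oxidase, read −0.33, −0.07 and −0.17 in the Tbc1d23 line, against 4.05, 4.11 and 4.08 in the CAT line, a difference of −4.27 ± 0.11. Cd36, a scavenger receptor for oxidised lipid, read −0.42, −0.62 and −0.81 in the Tbc1d23 line, against 3.54, 3.46 and 3.60 in the CAT line. Klf4, a transcription factor of monocyte differentiation, read 0.44, 0.65 and 0.98 in the Tbc1d23 line, against 4.65, 5.00 and 4.85 in the CAT line. Lower by similar amounts were Ms4a6c and Ms4a6b, membrane proteins of the Ms4a family, Pirb, an inhibitory receptor that binds class I MHC, and Cx3cr1, the fractalkine receptor. Il10ra, the ligand-binding chain of the IL-10 receptor, was 16.4-fold lower in the Tbc1d23 line. The rest were Ppfia4, a liprin scaffold, Cd109, a GPI-anchored co-receptor for TGF-β, Tmem51, Myo1f, a class I myosin of leukocytes, Igf1, the growth factor, and H1f2, a linker histone.

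**Figure D1:**
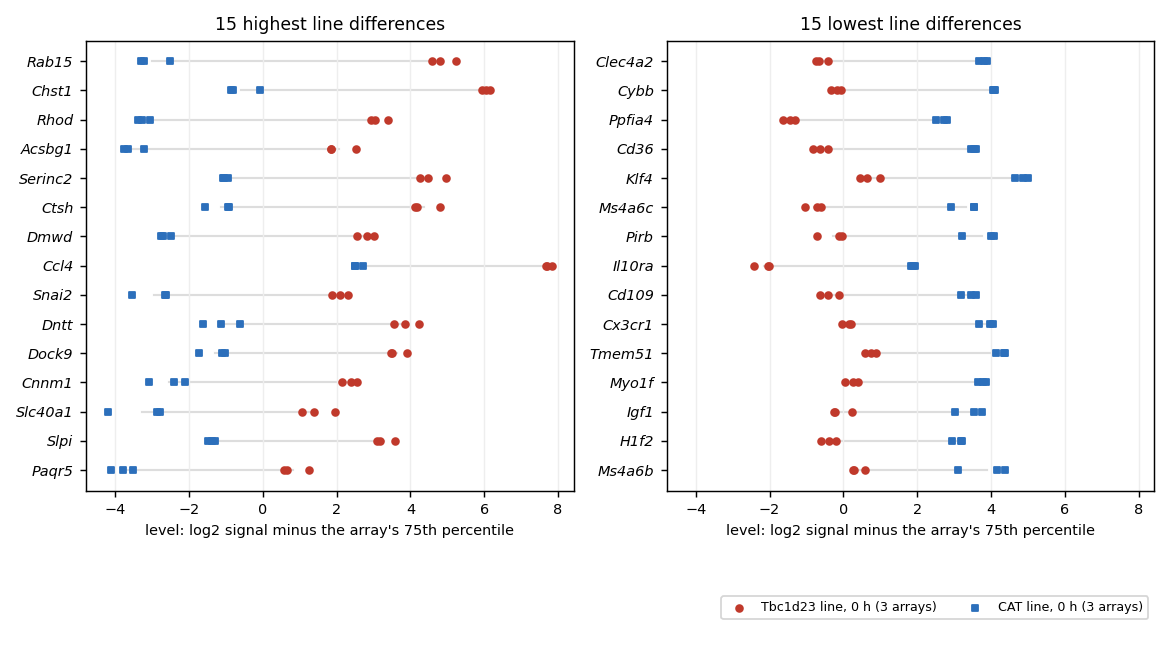
Level on each resting array (log2 signal minus the array's 75th percentile, horizontal axis) of the 15 genes with the highest and the 15 with the lowest line difference, from Rab15 (7.89) to Ms4a6b (−3.51). Circles are the 3 arrays of the Tbc1d23 line, squares the 3 of the CAT line, and the grey line joins the means; the lines do not overlap in any of these genes, since that was part of the rule.

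Some genes were well above background on all 3 arrays of 1 line and on none of the other. There were 122 in the Tbc1d23 line and 83 in the CAT line. For such genes the fold is a lower bound: the brighter line's mean is set against the mean, over the dim line's arrays, of the lowest signal well above background or the probe's own signal, whichever was higher. Of the 122 genes, 29 were at least 10-fold higher in the Tbc1d23 line and the median bound was 5.82-fold. Of the 83 genes of the CAT line, 1 passed 10-fold and the median bound was 1.7-fold. Which line had more such genes depended on single arrays: without replicate 1 of the Tbc1d23 line there were 122 genes detected in the Tbc1d23 line only and 217 genes detected in the CAT line only, and without its replicate 3 the counts were 122 and 165.

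Epha2, a receptor tyrosine kinase for ephrins, read 4.98, 5.15 and 5.41 in the Tbc1d23 line and was not well above background on any CAT array, where it read −4.64, −4.67 and −5.50. It was at least 889-fold higher in the Tbc1d23 line (adjusted p = 1.85e-14; probe at chr4:140885139-140885198, mm9). Tnnt2, cardiac troponin T, was at least 359-fold higher, and Hao1, a peroxisomal oxidase of glycolate known from liver, at least 214-fold. Galnt3, an enzyme that starts O-glycosylation, was at least 131-fold higher. Ptgs2, the inducible cyclooxygenase COX-2, read 0.76, 0.92 and 0.69 in the Tbc1d23 line, against −5.93, −5.83 and −5.81 in the CAT line, or at least 43.2-fold. Slc6a4 (the serotonin transporter), Lhx5 (a LIM homeobox factor), Creb5 (a CREB family factor), Csta1 (a cystatin) and Fam20a (a pseudokinase of the secretory pathway) were at least 23.8-, 22.2-, 21-, 20.1- and 20-fold higher.

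Of the 83 genes seen in the CAT line only, the 10 with the largest bound are named. F10, coagulation factor X, read −4.63, −5.48 and −4.43 in the Tbc1d23 line, against −0.46, 0.03 and −0.24 in the CAT line. It was at least 14.9-fold lower in the Tbc1d23 line (adjusted p = 3.02e-08). Cfb, complement factor B, and Csf3r, the G-CSF receptor, were at least 8.16- and 7.35-fold lower. Pltp, which moves phospholipid between lipoproteins, and Egln3, a prolyl hydroxylase that acts on HIF, were at least 6.88- and 6.36-fold lower. Prss46, a serine protease, C1qc, a chain of complement C1q, Tnfrsf17, the receptor BCMA, Atp6v0d2, a proton pump subunit, and Cd24a, a small surface glycoprotein, had bounds of 5.51 down to 4.07.

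Macrophages are specified by a small set of transcription factors around PU.1 (Spi1), and the resting Tbc1d23 line had less message for many of them. Of 20 tested lineage factors, 10 were called lower and 6 higher in the Tbc1d23 line, with a median difference of −0.79, which was −1.35 under median scaling, −0.60 within slide run 2 and −0.46 under normexp. Klf4 and Cebpa were among those that were lower. Cebpa, which drives myeloid commitment, read −1.71, −1.51 and −1.54 in the Tbc1d23 line, against 0.71, 0.63 and 0.56 in the CAT line. Every CAT array of Cebpa lay above every Tbc1d23 array, and the lines lay apart in most called genes. Irf8, needed for monocytes and dendritic cells, was lower by a difference of −1.36 ± 0.12, Mitf, a factor of osteoclasts and lysosome genes, by −1.35 ± 0.26. Spi1 itself differed by −1.03 ± 0.22. Tfec, a relative of Mitf, differed by −3.07 but was well above background on 2 of 3 Tbc1d23 arrays. Gfi1, a repressor of myeloid genes, was higher at 2.04 ± 0.22 and Nfil3, a leucine zipper factor, at 0.89 ± 0.15.

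Surface identity genes and growth factor receptors followed with 16 of 27 called lower and 5 higher, and a median of −0.96 (−1.51 under median scaling, −1.15 within run 2, −0.52 under normexp and −0.49 over the 23 members well above background on all 6 arrays). Adgre1, which encodes the macrophage antigen F4/80, read 3.35, 3.65 and 3.88 in the Tbc1d23 line, against 5.85, 6.53 and 6.49 in the CAT line, or 6.33-fold lower. Aif1, an actin-bundling protein of myeloid cells, and Ly86, the MD-1 partner of a TLR-like receptor, differed by −2.29 and −2.03. Csf1r, the M-CSF receptor, differed by −0.92 ± 0.24. Not every marker was lower: Cd14, the co-receptor for LPS, read 7.45, 7.54 and 7.72 in the Tbc1d23 line, against 6.76, 6.65 and 6.67 in the CAT line, and was called higher. The inhibitory receptor Lilrb4a was also higher, at 1.1. Itgam (CD11b) was called higher at 0.77, but not within run 2 (0.80, adjusted p = 0.0989) or under median scaling (0.21, adjusted p = 0.656). The differences of Cd68 (−0.17), Lyz2 (−0.23) and Ptprc (0.13) were not called, but another tested probe of Ptprc was called lower.

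Fc receptors take up particles coated with antibody, and the phagocyte oxidase makes superoxide. Of 17 Fc receptors and oxidase genes, 9 were called lower and 1 higher, with a median of −0.47 (−1.02 under median scaling, −0.77 within run 2). Fcgr2b, the inhibitory Fcγ receptor, read −1.21, −1.21 and −1.17 in the Tbc1d23 line, against 1.83, 2.21 and 2.15 in the CAT line. Fcgr4 and Fcgr3, activating Fcγ receptors, differed by −2.13 and −1.84, and the Src family kinase Fgr by −2.04. The arrays of the lines did not overlap in any of these 4 genes, as in most called genes. Fcer1g (−0.04), the signalling chain shared by the activating receptors, was not called.

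Of 13 C-type lectin and Ms4a genes, 9 were called lower and 3 higher, with a median of −1.18 (−1.74 under median scaling, −0.79 within run 2, −0.64 under normexp and −1.83 over the members well above background on all 6 arrays). Clec7a, the β-glucan receptor Dectin-1, read −3.31, −3.39 and −2.98 in the Tbc1d23 line, against 3.66, 4.12 and 4.04 in the CAT line. Its difference of −7.17 was the largest of the list, with 2 of 3 Tbc1d23 arrays well above background. Clec4a3 and Ms4a6d differed by −3.43 and −1.83. The 3 that were higher are the lectins Clec4d at 1.42, Clec4e, known as Mincle, at 1.06 and Clec5a at 0.71. The calls of Clec4e and Clec5a were lost under median scaling.

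Complement genes showed 6 of 9 called lower and 1 higher, with a median of −1.09 (−1.65 under median scaling, −1.22 within run 2, −0.50 under normexp and −0.41 over the 4 members well above background on all 6 arrays). C1qb differed by −1.01, a call that was lost within run 2 (−0.68, adjusted p = 0.0697), and C3ar1, the C3a receptor, was at least 3.08-fold lower. Cfp, properdin, which stabilises the alternative convertase, was higher at 1.35 ± 0.14.

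RAW264.7 cells can form osteoclasts, and 7 of 15 genes of that programme were called lower and 4 higher in the Tbc1d23 line; the median of −0.39 was −0.95 under median scaling, −0.05 within run 2, −0.21 under normexp and −0.01 over the 9 members well above background on all 6 arrays. Acp5, the tartrate-resistant acid phosphatase, read −3.84, −5.36 and −4.27 in the Tbc1d23 line, against 2.24, 2.00 and 1.70 in the CAT line. It was well above background on 1 of 3 Tbc1d23 arrays. Ocstamp, a fusion protein, and Tnfrsf11a, the receptor RANK, were lower at −2.07 and −1.45. Dcstamp, the other fusion protein, was higher at 1.63, as were Sh3pxd2a, a scaffold of podosomes, at 2.33 and Car2, carbonic anhydrase, at 1.30.

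Cathepsins and lysosomal hydrolases divided in the same way. Of 25, 12 were called lower and 5 higher, with a median of −0.35 (−0.91 under median scaling, −0.26 within run 2). Ctsf (−2.11), Npc2 (−1.30), Psap (−1.26) and Ctss (−1.13) were lower: a cathepsin, a cholesterol carrier, the saposin precursor and the protease that trims the invariant chain. Against these stood Ctsh, named above, and Ctsl and Ctse, proteases higher at 1.19 and 1.03. Ctsb (0.08), Ctsd (0.11) and Lamp2 (−0.29) were not called.

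**Figure D2:**
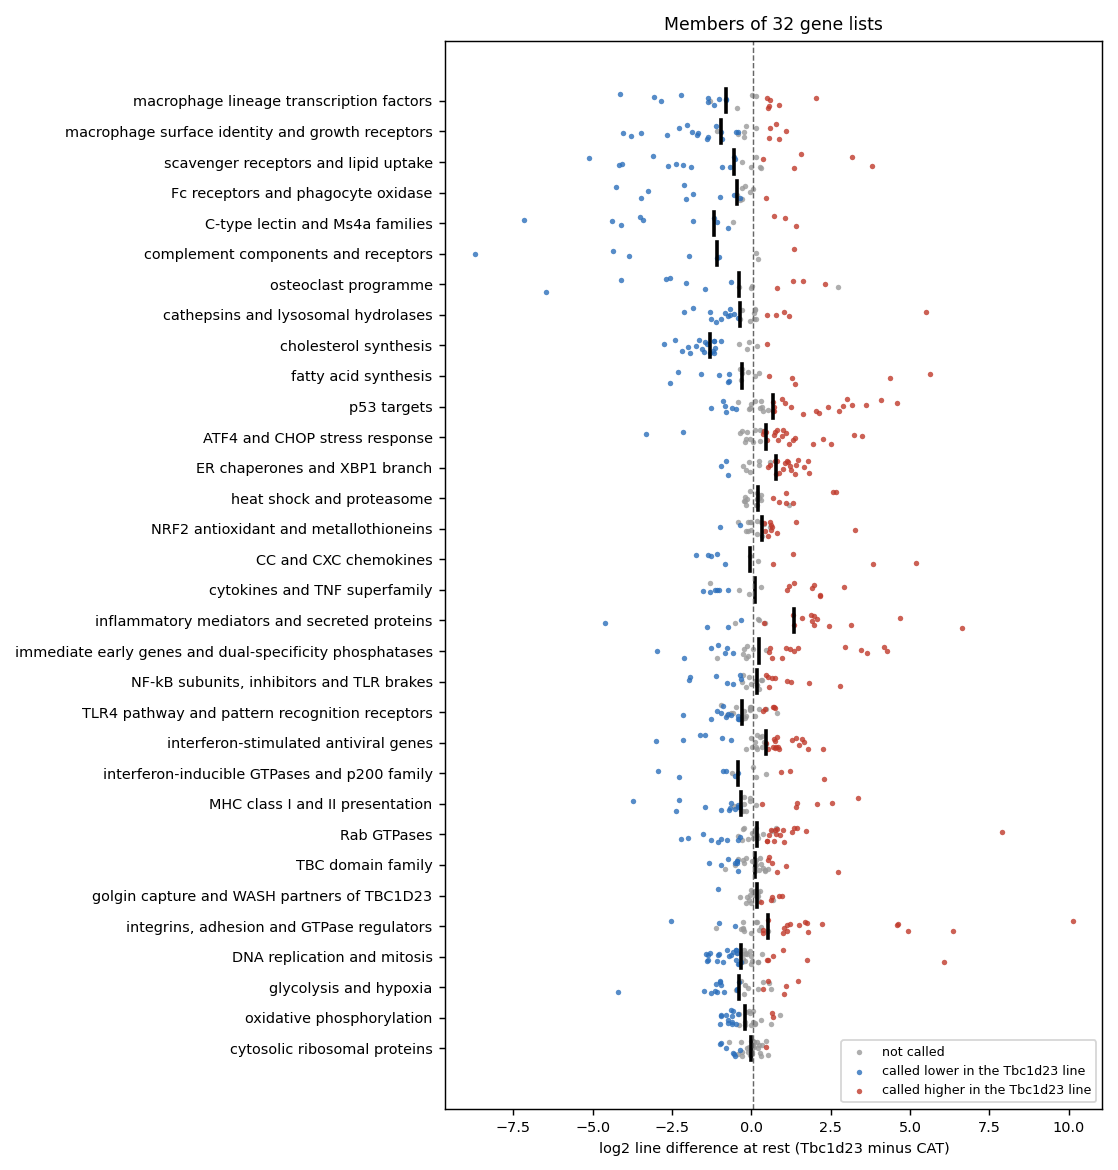
Line difference at rest (Tbc1d23 minus CAT, log2, horizontal axis) of every tested member of the 32 gene lists, 1 point per gene, with the list's median as a black bar and the median of all genes (0.06) as a dashed line. The medians of the macrophage identity and cholesterol lists lie left of the dashed line and those of the p53, ER chaperone and mediator lists right of it.

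Among the lists, the sterol pathway had the greatest share of members in 1 direction. Macrophages make cholesterol from acetyl-CoA through mevalonate, farnesyl diphosphate, squalene and lanosterol, and SREBP-2 (Srebf2) is the factor known to drive these enzymes together. Of 23 tested genes, 18 were called lower in the Tbc1d23 line, against 21.7% of all genes. The median was −1.31 (−1.87 under median scaling, −1.38 within run 2). Sc5d, a desaturase, was called higher at 0.51, but another of its probes was called the other way and the call was lost within run 2.

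The lower members reach from the first committed steps to the last. Mvd, the enzyme that decarboxylates mevalonate diphosphate, read 0.74, 0.83 and 1.15 in the Tbc1d23 line, against 2.99, 2.92 and 2.81 in the CAT line. Fdps, which makes farnesyl diphosphate, read 2.79, 2.89 and 2.72 in the Tbc1d23 line, against 5.17, 5.15 and 5.28 in the CAT line, a difference of −2.40 ± 0.10 (adjusted p = 5.22e-13). Lss, which closes the sterol rings, read −1.41, −1.81 and −1.0 in the Tbc1d23 line, against 1.30, 1.41 and 1.33 in the CAT line, or 6.76-fold lower. In each of these 3 enzymes all Tbc1d23 arrays lay below all CAT arrays, and the lines lay apart in most called genes. Fdft1, squalene synthase, differed by −2.19, and Nsdhl, a demethylating dehydrogenase, by −1.75. Among regulators, Srebf2 differed by −0.97 and Insig1, which retains the SREBP complex in the ER, by −1.22. Acat2 (0.16) and Ebp (−0.09), enzymes near the start and the end of the pathway, were not called.

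**Figure D3:**
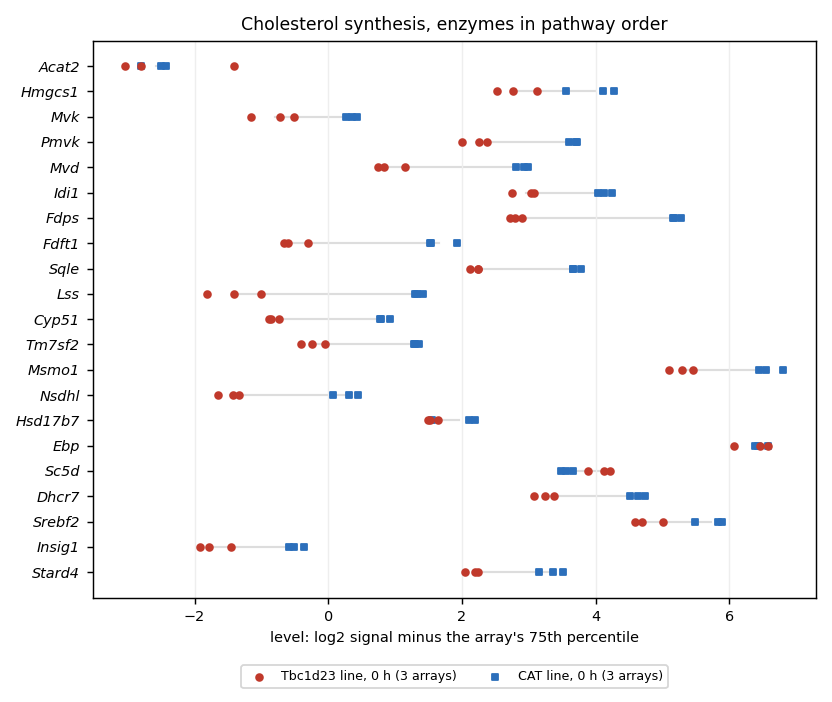
Level on each resting array (log2 signal minus the array's 75th percentile, horizontal axis) of 21 tested genes of cholesterol synthesis, enzymes from top to bottom in pathway order and then the regulators Srebf2, Insig1 and Stard4. Circles are the 3 arrays of the Tbc1d23 line and squares the 3 of the CAT line; the circles lie left of the squares in the 17 of these genes called lower, and mix with them in Acat2, Hsd17b7 and Ebp.

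Fatty acid genes were divided, with 7 of 19 called lower (36.8%, against 21.7% of all genes) and 5 higher (26.3%, against 25.1%). Their median was −0.29 (−0.85 under median scaling, −0.35 within run 2). Acss2, which makes acetyl-CoA from acetate, Fads1, a desaturase, and Acaca, acetyl-CoA carboxylase, were lower at −2.57, −2.32 and −1.58. Acsbg1 was higher, as was Me1, malic enzyme, at 1.38, and Thrsp, a lipogenic nuclear protein, was at least 8.42-fold higher. Fasn, fatty acid synthase, was not called (0.25).

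Of 22 scavenger and lipid handling genes, 12 were called lower and 5 higher, with a median of −0.54 (−1.09 under median scaling, −0.36 within run 2). Besides Cd36, the lower genes included Lpl, lipoprotein lipase, which read 3.81, 4.08 and 4.38 in the Tbc1d23 line, against 7.52, 7.07 and 7.03 in the CAT line. Abca1, the cholesterol exporter, and Scd2, a stearoyl-CoA desaturase, differed by −2.64 and −2.36, and Scd1 by −5.13 with 2 of 3 Tbc1d23 arrays well above background. Fabp4, a fatty acid carrier, went the other way at 3.18 ± 0.14, as did Plin2, the coat protein of lipid droplets, at 1.56 and Msr1, the class A scavenger receptor, at 1.35. Cd5l, a secreted scavenger receptor, was at least 14-fold higher. Apoe (−0.02) and Lrp1 (0.26) were not called.

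p53 (Trp53) is known to induce cell cycle brakes, its own inhibitor Mdm2 and metabolic guards such as the sestrins. Of 34 tested targets, 18 were called higher in the Tbc1d23 line, against 25.1% of all genes, and 6 were called lower. The median of 0.69 was 0.13 under median scaling (all genes −0.50), 0.53 within run 2 and 0.42 under normexp. Ccng1, cyclin G1, read 5.19, 5.29 and 5.18 in the Tbc1d23 line, against 2.05, 2.05 and 2.04 in the CAT line. Cdkn1a, the kinase inhibitor p21, read 2.82, 2.94 and 3.06 in the Tbc1d23 line, against 0.19, −0.10 and 0.08 in the CAT line, a difference of 2.88 ± 0.17 (adjusted p = 1.36e-10). Phlda3, an inhibitor of Akt, read 5.79, 6.08 and 6.29 in the Tbc1d23 line, against 1.21, 1.58 and 1.57 in the CAT line, or 24.3-fold higher. The arrays of the lines do not overlap in these genes, as in most called genes.

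Plk2, a polo-like kinase, and Sesn2, a sestrin, were higher at 4.08 and 3.02, and Mdm2, the p53 ligase, differed by 2.76. Eda2r, a death receptor of the TNF family, was at least 4.04-fold higher. Sesn1 and Ckap2, also listed as targets, were lower at −1.27 and −0.91, and Btg2 at −0.84, with another probe called the other way and the call lost within run 2 (−0.42, adjusted p = 0.063). Trp53 itself was not called (−0.04), nor were Bax (0.36) and Pmaip1 (0.35), which act in cell death.

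Both arms of the ER stress response held many genes called higher. The ATF4 branch is known to raise amino acid synthesis and transport genes and the factor CHOP (Ddit3), and the XBP1 and ATF6 branches to raise chaperones of the ER lumen. Of 33 ATF4 and CHOP genes, 19 were called higher and 2 lower in the Tbc1d23 line. The median of 0.47 was 0.53 within run 2. Under median scaling it was −0.09 (all genes −0.50), with 5 called higher and 3 lower. Trib3, a pseudokinase induced by CHOP, read 0.64, 0.62 and 0.26 in the Tbc1d23 line, against −2.98, −2.88 and −2.37 in the CAT line. Ddit3 read 0.68, 0.54 and 1.15 in the Tbc1d23 line, against −1.04, −1.20 and −1.24 in the CAT line, a difference of 1.95 ± 0.19. Ddit4, an inhibitor of mTORC1, Ppp1r15a, which restores translation, and Chac1, which degrades glutathione, were higher at 2.52, 2.25 and 1.37. Slc7a3, a carrier of basic amino acids, was at least 3.5-fold higher. Atf3, itself a stress-induced factor, was lower: it read −0.37, −0.45 and −0.32 in the Tbc1d23 line, against 3.00, 2.89 and 2.94 in the CAT line, a 10-fold difference. Stc2, stanniocalcin 2, was lower at −2.14.

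Of 28 ER chaperone and XBP1 branch genes, 18 were called higher and 3 lower, with a median of 0.78 that was 0.84 within run 2 and 0.23 under median scaling, where 4 were called higher and 3 lower. Hspa5, the chaperone BiP, differed by 1.21. Creld2, a secreted ER stress protein, read 7.02, 7.31 and 7.45 in the Tbc1d23 line, against 5.50, 5.66 and 5.68 in the CAT line. Dnajc3, a co-chaperone of BiP, read 4.32, 4.46 and 3.81 in the Tbc1d23 line, against 2.39, 2.45 and 2.37 in the CAT line. Every Tbc1d23 array lay above every CAT array in both, and the lines lay apart in most called genes. Dnajb9 and Dnajb11, further BiP co-chaperones, Hyou1, a large chaperone, and Pdia4, a disulfide isomerase, were higher at 1.81, 1.47, 1.40 and 1.36. P4hb, another disulfide isomerase, and Xbp1 were lower at −0.97 and −0.80. Hsp90b1 (0.59), Canx (−0.26) and the sensors Ern1 (0.23) and Eif2ak3 (−0.05) were not called.

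The ER stress element, which is CCAAT, then 9 bases, then CCACG, was looked for on both strands in the 300 bases around each start that RefSeq gives (GRCm38.p6). It was found at a start of 8 of 23 tested ER chaperone genes (34.8%), against 37 of all 27025 genes with a promoter, tested or not (0.137%). A gene with several starts counts once. By call, 6 of 13 genes called higher held it, 2 of 7 of those not called and 0 of 3 of those called lower. The stretches below show it, in capitals, in 3 genes that were higher and in Canx, which was not called although it holds the same letters; in Creld2 it lies on the other strand.
Dnajc3 promoter, chr14:118937767-118937905, plus strand: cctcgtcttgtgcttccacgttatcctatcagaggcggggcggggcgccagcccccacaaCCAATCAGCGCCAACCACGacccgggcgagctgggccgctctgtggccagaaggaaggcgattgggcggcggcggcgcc
Creld2 promoter, chr15:88819460-88819598, plus strand: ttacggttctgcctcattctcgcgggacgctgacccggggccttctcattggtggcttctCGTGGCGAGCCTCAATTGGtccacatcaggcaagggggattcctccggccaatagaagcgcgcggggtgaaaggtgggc
Hspa5 promoter, chr2:34771965-34772089, plus strand: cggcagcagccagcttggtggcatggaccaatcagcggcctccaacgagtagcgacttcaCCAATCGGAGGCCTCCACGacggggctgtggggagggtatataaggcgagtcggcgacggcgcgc
Canx promoter, chr11:50325740-50325878, minus strand: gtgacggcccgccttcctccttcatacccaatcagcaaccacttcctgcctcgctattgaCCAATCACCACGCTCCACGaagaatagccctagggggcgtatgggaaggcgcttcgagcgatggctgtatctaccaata

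The amino acid response element, searched as TTGCATCA on both strands, was in 5 of 26 genes of the ATF4 and CHOP list (19.2%). Over all genes with a promoter it was in 279 (1.03%). By call, 4 of 16 genes called higher held it, 0 of 8 of those not called and 1 of 2 of those called lower. It is shown in capitals in Chac1, which was higher in the Tbc1d23 line, and in Atf3, which was lower, because the same letters stand in promoters of genes that moved in opposite directions.
Chac1 promoter, chr2:119350992-119351116, plus strand: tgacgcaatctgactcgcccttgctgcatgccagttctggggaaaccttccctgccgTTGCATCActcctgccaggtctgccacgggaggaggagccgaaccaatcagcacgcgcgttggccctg
Atf3 promoter, chr1:191183376-191183503, minus strand: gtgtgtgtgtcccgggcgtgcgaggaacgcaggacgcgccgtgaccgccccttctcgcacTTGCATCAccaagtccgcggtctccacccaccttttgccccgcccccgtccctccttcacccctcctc
The sterol regulatory element, searched as TCACNCCAC on both strands, was in 1 of 17 genes of the cholesterol list, Hmgcs1. Over all genes with a promoter it was in 388 (1.44%). A match describes the letters in the window and is not a measured site.

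**Figure D4:**
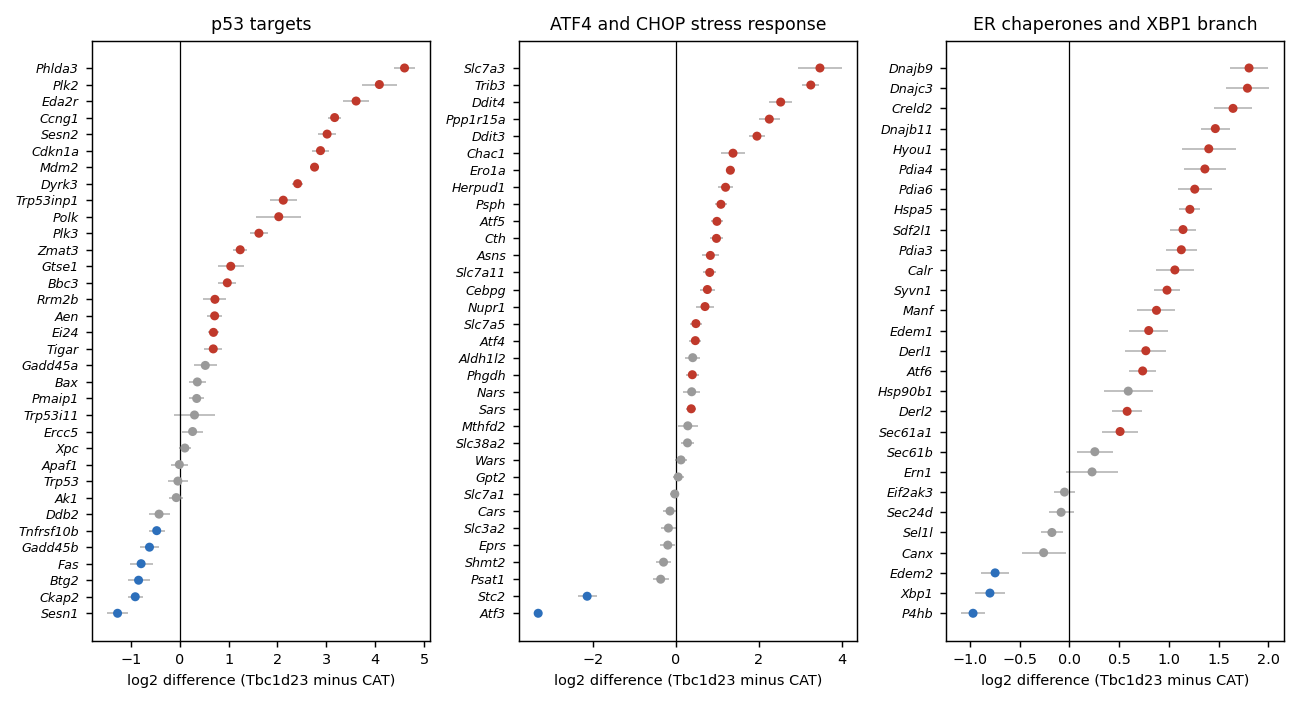
Line difference at rest (Tbc1d23 minus CAT, log2, horizontal axis) of each tested gene of the p53, ATF4 and CHOP, and ER chaperone lists, with the standard error of the limma fit as a bar. Red points were called higher in the Tbc1d23 line (18, 19 and 18 genes), blue points called lower (6, 2 and 3) and grey points not called.

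Of 23 heat shock and proteasome genes, 7 were called higher and none lower, with a median of 0.20 that was 0.23 within run 2 and −0.36 under median scaling. Hsph1, a large cytosolic chaperone, read 7.65, 7.90 and 7.92 in the Tbc1d23 line, against 5.07, 5.37 and 5.36 in the CAT line. Bag3, Hsp90aa1 and Dnaja1, chaperones or their partners, were higher at 1.30, 1.08 and 1.07, and Hspa1b was at least 4.46-fold higher. Of 25 antioxidant genes, 10 were called higher and 2 lower, with a median of 0.33 that was 0.26 within run 2 and −0.22 under median scaling. Hmox1, the haem-degrading oxygenase, read 6.01, 6.28 and 6.35 in the Tbc1d23 line, against 2.70, 3.10 and 3.05 in the CAT line, or 9.58-fold higher. Sqstm1, the autophagy receptor p62, and Txnrd1, thioredoxin reductase, were higher at 1.41 and 0.82. Slc48a1, a haem transporter, was lower at −1.0.

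Genes of the inflammatory response were called in both directions before LPS was added, as were genes at large (25.1% higher and 21.7% lower). Of 21 inflammatory mediators and secreted proteins, 13 were called higher and 4 lower, with a median of 1.33 (0.78 under median scaling, 1.43 within run 2). Besides Ptgs2 and Slpi, the higher genes included Timp1, an inhibitor of matrix proteases, at 3.15, Odc1, ornithine decarboxylase, at 2.06 and Plau, urokinase, at 1.97. Plau read 3.75, 3.74 and 3.76 in the Tbc1d23 line, against 1.49, 1.93 and 1.92 in the CAT line. F10 and Tbxas1, thromboxane synthase, were lower, the second at −1.41.

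Of 11 chemokines tested, 4 were called higher and 5 lower; the median of −0.04 was −0.60 under median scaling, 0.06 within run 2 and 0.21 over the 9 members well above background on all 6 arrays. Ccl3, the chemokine MIP-1α, read 8.93, 9.13 and 8.31 in the Tbc1d23 line, against 4.89, 5.08 and 4.95 in the CAT line, or 14.1-fold higher. Cxcl10, an interferon-induced chemokine, was higher at 1.30. Cxcl16, which also binds oxidised lipoprotein, and Ccl5, known as RANTES, were lower at −1.74 and −1.10. Ccl2 was not called (−0.04).

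Cytokines were called higher in 8 and lower in 6 of 18 tested, with a median of 0.11 that was −0.45 under median scaling, 0.43 within run 2, 0.00 under normexp and 0.72 over the members well above background on all 6 arrays. Tnf read 1.34, 1.34 and 1.71 in the Tbc1d23 line, against −0.19, −0.51 and −0.68 in the CAT line, a difference of 1.92 ± 0.14 (adjusted p = 1.43e-09). Ltb, a member of the lymphotoxin complex, and Tnfsf9, the 4-1BB ligand, were higher at 2.17 and 2.15, and Lta was at least 7.17-fold higher. Spp1, osteopontin, and Vegfa, the vascular growth factor, were higher at 1.97 and 1.35. Il18 and Tnfsf13b (BAFF) were lower at −1.15 and −1.30. Il1b, well above background in the CAT line only, was at least 1.17-fold lower.

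Of 28 immediate early genes and dual-specificity phosphatases, 13 were called higher and 7 lower, with a median of 0.25 that was 0.38 within run 2, −0.31 under median scaling, −0.04 under normexp and 0.58 over the 24 members well above background on all 6 arrays. Ier3, an early response gene of NF-kB, read 4.20, 4.30 and 4.11 in the Tbc1d23 line, against −0.01, −0.08 and −0.14 in the CAT line. Dusp6 and Dusp4, phosphatases that switch off ERK, were higher at 4.18 and 3.65; the Dusp4 spot of CAT replicate 1 was an outlier and left out. Fosl1, an AP-1 subunit, Maff, a small Maf factor, and Jun were higher at 3.46, 2.94 and 1.46. The zinc finger factors Egr2 and Egr1 were lower, at −2.99 and −1.05. Fos (−0.24) and Ier2 (−0.10) were not called.

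The NF-kB and TLR brake list had 9 of 27 called higher (33.3%, against 25.1% of all genes) and 7 lower (25.9%, against 21.7%). Its median of 0.16 was 0.22 within run 2 and −0.39 under median scaling. Traf1, an adaptor of TNF receptors, read 3.80, 4.04 and 4.14 in the Tbc1d23 line, against 1.19, 1.31 and 1.08 in the CAT line. Sigirr, an inhibitory receptor of the IL-1 family, and Nfkbiz, a nuclear IkB protein, were higher at 1.26 and 1.12. Irak3, the inhibitory IRAK-M, read −2.78, −2.49 and −2.87 in the Tbc1d23 line, against −0.74, −0.79 and −0.84 in the CAT line, and Tnip3 and Tnfaip3 (A20), both brakes on NF-kB, were lower at −1.96 and −1.11. Rela (0.16) and Nfkb1 (0.23) were not called.

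Receptors of the TLR and related pathways were called lower in 11 of 35 and higher in 5; the median was −0.29 (−0.85 under median scaling, −0.22 within run 2). Tlr1, which pairs with TLR2, read −1.41, −1.52 and −1.45 in the Tbc1d23 line, against 0.75, 0.63 and 0.68 in the CAT line. Nod2, a sensor of muramyl dipeptide, and Casp4, the inflammatory caspase that binds intracellular LPS, were lower at −1.26 and −1.10. Of the LPS receptor itself, Ly96 (MD-2) was higher at 0.75 and Tlr4 was not called (−0.28).

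Interferon-stimulated antiviral genes were called higher in 17 of 35 and lower in 6. The median of 0.47 was 0.67 within run 2. Under median scaling it was −0.08 (all genes −0.50), with 4 called higher and 6 lower. Isg20, an exonuclease, read −0.49, −0.75 and −0.76 in the Tbc1d23 line, against −3.08, −2.75 and −2.91 in the CAT line. Ifi44, Ifit1 and Mx2, antiviral effectors, were higher at 1.78, 1.65 and 1.39. The lower genes were led by Ifi27l2a at −3.02 ± 0.25 and by Ifitm2 and Ifitm6, membrane proteins that hinder virus entry, at −2.14 and −1.61. Of 13 interferon-inducible GTPases and p200 genes, 6 were called lower and 3 higher, with a median of −0.43 (−0.99 under median scaling, −0.37 within run 2, −0.23 under normexp). That median turned to 0.05 with the mean of each gene's tested probes, where 3 were called higher and 5 lower. In that list Ifi203 and Ifi202b, DNA-binding p200 proteins, were lower at −2.96 and −2.28, and the GTPase Ifi47 was higher at 2.30.

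Of 28 genes of antigen presentation, 12 were called lower and 6 higher, with a median of −0.33 (−0.89 under median scaling, −0.43 within run 2). B2m, the light chain of class I, read 5.33, 5.47 and 5.79 in the Tbc1d23 line, against 6.53, 6.41 and 6.55 in the CAT line, and Psmb9, an immunoproteasome subunit, differed by −2.38. Tnfrsf1b, the TNF receptor TNFR2, was lower at −2.27, and H2-DMb1, which loads class II, was at least 7.19-fold lower. H2-M3, which presents formylated peptides, was higher at 3.34 ± 0.16.

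Since Rab GTPases are the partners of TBC proteins, both families were described in full. Of 42 Rab genes and effectors tested, 16 were called higher (38.1%, against 25.1% of all genes) and 9 lower (21.4%, against 21.7%). The median of 0.17 was 0.35 within run 2 and −0.39 under median scaling. Rab15 had the largest difference of the list. Rab8b and Rab6a, of Golgi export, were higher at 1.73 and 1.02, Rab21, of early endosomes, at 1.34 and Rab20, of phagosomes, at 1.43. Rab4a, also of early endosomes, was called higher at 1.28, but not within run 2 (1.12, adjusted p = 0.155). Rab3d and Rab3a, of regulated secretion, were lower at −2.22 and −1.51, Rab4b at −1.27 and Rab9, of transport from late endosomes to the Golgi, at −1.06. Of 35 other TBC family genes, 6 were called higher (17.1%, against 25.1% of all genes) and 8 lower (22.9%, against 21.7%). These shares are close to or below those of genes at large. The median of 0.12 was 0.14 within run 2 and −0.44 under median scaling. Tbc1d12, known to bind Rab11, read −0.47, −0.65 and −0.40 in the Tbc1d23 line, against −3.47, −3.19 and −3.08 in the CAT line. Tbc1d2, which acts on Rab7, was called higher at 1.08, but not within run 2 (0.60, adjusted p = 0.0581). Tbc1d2b was lower at −0.95.

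Of 25 genes of golgin capture, the WASH complex and retromer and their cargo, 5 (20.0%) were called higher and 1 (4.0%) lower. Over all genes these shares were 25.1 and 21.7%. The median of 0.16 was 0.24 within run 2. Under median scaling it was −0.39, with none called higher. Golga4, a golgin that TBC1D23 binds, was higher at 0.87 ± 0.21, and Cpd, a carboxypeptidase cargo, at 0.97. Igf2r, the mannose 6-phosphate receptor that carries lysosomal enzymes, read 2.73, 3.02 and 3.15 in the Tbc1d23 line, against 3.74, 4.22 and 4.12 in the CAT line, and was lower at −1.06. Fam91a1 (−0.05) and Wdr11 (0.00), which form a complex with TBC1D23, were not called.

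Of 33 integrin, adhesion and GTPase regulator genes, 18 were called higher and 3 lower; the median of 0.51 was 0.61 within run 2 and −0.04 under median scaling, where 10 were called higher and 5 lower. Epha2, Rhod and Dock9 are described above. Itgb4 and Itga6, which pair as the laminin receptor of epithelia, were both higher: Itgb4 read 2.31, 2.47 and 2.52 in the Tbc1d23 line, against −2.31, −2.18 and −2.06 in the CAT line, and Itga6 was higher at 2.24. Rnd3, an atypical small GTPase, was at least 16.6-fold higher. Itgax (CD11c) and Itga4 were lower at −2.53 and −1.03.

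Of 42 replication and mitosis genes, 20 were called lower and 6 higher, with a median of −0.32 (−0.87 under median scaling, −0.36 within run 2). Bub1b, a spindle checkpoint kinase, Tk1, thymidine kinase, Top2a, topoisomerase II, and Ccna2, cyclin A2, were lower at −1.41, −1.36, −1.35 and −1.29. The D cyclins went the other way: Ccnd1 read 3.65, 3.85 and 3.85 in the Tbc1d23 line, against 2.08, 2.02 and 2.04 in the CAT line. Ccnd2 read 1.74, 1.90 and 2.35 in the Tbc1d23 line, against −3.49, −3.56 and −5.17 in the CAT line, with 2 of 3 CAT arrays well above background. Cdkn2c, an inhibitor of D cyclin kinases, was lower at −1.42.

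Of 27 glycolysis and hypoxia genes, 13 were called lower and 5 higher, with a median of −0.38 (−0.93 under median scaling, −0.25 within run 2). Pfkl, Tpi1 and Pgk1, enzymes of the pathway, were lower at −1.14, −1.11 and −1.07, and Bnip3, a mitophagy gene induced by hypoxia, at −1.49. Hif1a, the hypoxia factor itself, read 2.36, 2.44 and 2.39 in the Tbc1d23 line, against 0.92, 0.83 and 1.08 in the CAT line, and Hk1, hexokinase 1, and Slc2a1, the glucose carrier GLUT1, were higher at 1.09 and 1.04. Of 31 oxidative phosphorylation genes, 13 were called lower and 2 higher, with a median of −0.21 (−0.77 under median scaling, −0.21 within run 2, −0.10 under normexp); Sdha and Cox5b were lower at −0.98 and −0.97. Ribosomal protein genes had 7 of 37 called lower (18.9%, against 21.7% of all genes) and 1 higher (2.7%, against 25.1%). Their median was −0.01 (−0.57 under median scaling, −0.06 within run 2).

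Markers of other cell types were measured on the same arrays, and their part in the differences above was not tested. Of 6 T and NK cell markers tested, 4 were called higher in the Tbc1d23 line, and their log2 summed level was 2.15 to 2.19 in the Tbc1d23 line, against −0.24 to 0.42 in the CAT line. These were Gata3 (3.10), Cd5 (2.98), Lck (1.43) and Il7r (1.42), whereas Cd3d, Thy1 and Gzma were not well above background on any array. Cd3e (−0.96) and Cd4 (0.36) were tested and not called at rest. After LPS, Cd3e was called lower in the Tbc1d23 line at 1, 3 and 5 h (−2.14, −1.44 and −1.81). Of 7 B and pre-B cell markers tested, Dntt and Vpreb1 were higher and Cd24a and Blnk lower; the sum was 6.80 to 7.16 in the Tbc1d23 line, against 7.06 to 7.45 in the CAT line, and Ebf1, Rag1 and Rag2 were not well above background on any array. Of 6 muscle markers, Tnnt2 and Tnnc1 were higher, with sums of 5.64 to 5.85 in the Tbc1d23 line, against 5.14 to 5.47 in the CAT line, and Myog was not well above background on any array. The level of the muscle sum mostly follows Tnni2, which was not called (−0.004). The gap between the sums is mostly that of Tnnt2, with a mean of 3.845 in the Tbc1d23 line, against −6.593 in the CAT line. Called in the other lists were S100a8 of 3 granulocyte markers, Tcf4 (higher) and Cd83 and Bst1 (lower) of 6 dendritic cell markers, Epor and Tal1 of 6 erythroid markers, Pdgfrb (lower) of 5 fibroblast markers and Eng of 4 endothelial markers. The calls of Blnk, Epor, Tal1 and Pdgfrb were each lost when some single array was left out, and those of Blnk, Epor and Il7r (1.47, adjusted p = 0.0646) within run 2. None of 3 mast cell, 4 epithelial or 2 neural markers tested was called.

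The line difference at rest was compared with that on the arrays taken after LPS, which are other arrays on the same slides. The estimated correlation of arrays within a slide was 0.58, so the times are not independent of each other. Called between the lines were 47.1% of the same genes at 1 h, 52.0% at 3 h and 54.3% at 5 h. Of the 6513 genes called at rest, 81.1% were called in the same direction at 1 h, 71.6% at 3 h and 66.7% at 5 h, and 1.07, 5.60 and 8.23% in the opposite direction. The direction was shared by all 4 times in 3681 genes (56.5%). The line difference of Rab15 was 7.89, 7.62, 5.82 and 6.84 at 0, 1, 3 and 5 h, and that of Cybb was −4.27, −4.17, −3.91 and −4.08. That of Ccl4 was 5.17, 1.14, 0.03 and −0.87. For Slpi the differences were 4.68, 2.39, 1.41 and 0.32, and for Klf4 they were −4.14, −4.03, −1.62 and −2.08.

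**Figure D5:**
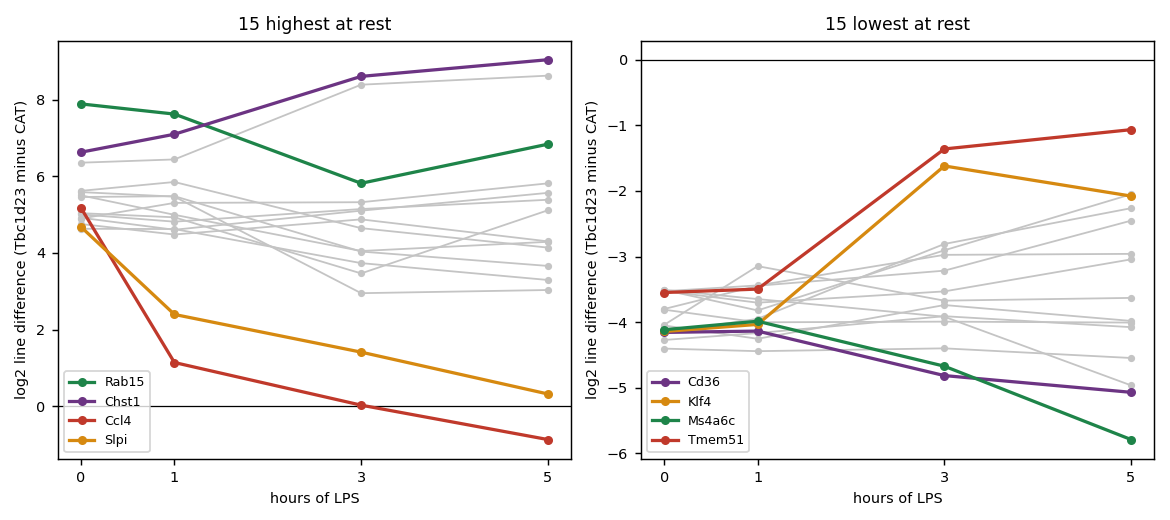
Line difference (Tbc1d23 minus CAT, log2, vertical axis) of the 30 genes named by rank at rest, at 0, 1, 3 and 5 h of LPS (horizontal axis), each point a difference of means of 3 arrays per line. Named genes are coloured and the others grey; Ccl4 reaches −0.87 and Slpi 0.32 at 5 h, while Chst1 reaches 9.04 and Ms4a6c −5.79.

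The median difference was −0.03 to 0.14 on the 20 chromosomes that hold 13809 of the tested genes (mm9 positions). Over windows of 50 neighbouring genes the median was −0.57 to 0.52, the lowest on chromosome 6 and the highest on chromosomes 3 and 4.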

How the data were processed

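RNA of 24 samples was read on 1-colour Agilent mouse arrays of 43379 spots. The submitters' processing notes name Agilent Feature Extraction, RMA and Partek, and per the file headers Feature Extraction 10.7.1.1 made the deposited intensity values, background-subtracted processed signals on the mm9 build. The authors also deposited log2 values, whose columns share a median of 3.873 and which rank probes as the processed signals do (Spearman 0.9997 to 1.0). These were used as an alternative.

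The intensity of each probe was taken to log2 and set against its array's 75th percentile, after control and outlier spots were left out. Tested were the probes that 1 resting line or both had well above background in each of its 3 arrays: 20170 probes of 13928 genes, 11685 of them under official symbols. Each gene was represented by its tested probe with the highest mean over the 6 resting arrays. In 4666 genes with several tested probes, the line differences of the 2 brightest probes correlated at 0.572. Both were called in 1361 of these genes, and in the same direction in 1140. A call is therefore that of the representing probe. limma 3.58.1 (R 4.3.3) was fitted to all 24 arrays in 8 groups, with Benjamini-Hochberg adjustment. That fit treats the arrays of a slide as independent, whereas their estimated correlation was 0.58. With slide as a random block 6417 genes were called, and in a fit of the 6 resting arrays alone 5178. Other steps used data.table, version 1.17.8, pandas 2.3.3 and matplotlib 3.10.9. On simulated data of 13928 genes the fit was tested with known changes and recovered them more often the larger they were. The simulated noise was independent between arrays, unlike that of arrays sharing a slide. The number of arrays limits the precision.

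The genes named are the 15 highest and 15 lowest, the 10 with the largest bound in each line, and up to 6 called genes in each direction of each list, with others of the lists as examples chosen after their values were seen. The gene lists and the comparison were chosen with earlier results of these data known. Alternatives covered scaling, background correction, the filter, the probe, the arrays in the fit, slide, slide run, replicate number and each array left out. Same-numbered arrays did not deviate together (correlations of −0.064, −0.229 and −0.195), so replicates were not paired. Promoters are RefSeq's, build GRCm38.p6. Some members of the lists are not reported here by name.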

Additional observations from a re-analysis of the deposited data

Results flagged for a closer look

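In 35 of the named genes the arrays of the lines lay apart in 1 direction at rest and apart in the opposite direction after LPS. The difference between the times was not tested. The line difference at rest stands in the report, and the value after LPS is given here at the time when it was largest.

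Among genes higher in the Tbc1d23 line at rest, interferon-stimulated genes turned as follows: the line difference was −8.05 for Ifit1 and −5.10 for Mx2 at 3 h, and −5.98 for Isg20, −4.77 for Ifi47, −4.20 for Cxcl10 and −1.80 for Ifi44 at 5 h. Of cytokines, chemokines and mediators, Tnf reached −3.02 and Tnfsf9 −0.45 at 3 h, and Timp1 reached −3.03, Ccl4 −0.87, Lta −0.68 and Ptgs2 −0.53 at 5 h. Of transcription and signalling genes, Ppp1r15a reached −1.53, Maff −1.37, Traf1 −1.02 and Jun −0.39 at 1 h, and Nfkbiz −2.17, Nfil3 −1.66 and Fosl1 −0.28 at 5 h. Of surface genes, Clec4e reached −1.35 at 3 h, and Lilrb4a −1.79, Dcstamp −0.54, Msr1 −0.54 and Cd14 −0.53 at 5 h. The others were Chac1 at −2.66, Rab20 at −0.73, Trib3 at −0.60 and Lck at −0.59 at 5 h, and Hspa1b at −0.91 at 3 h.

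Among genes lower in the Tbc1d23 line at rest, Sesn1 reached 2.56, Tk1 0.85 and Cebpa 0.57 at 5 h, and Rab3a 1.12, Egr1 0.84 and Stard4, a carrier of sterols, 0.48 at 3 h.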

How the results depend on the processing

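Of 250 called genes named, 157 kept call and direction under all 20 alternatives, as did all 30 named by rank. Median scaling left 685 genes called higher, and normexp left 1883 called (1130 higher, 753 lower); with 43 outlying local backgrounds replaced first, an alternative chosen after seeing the data, normexp gave 6390. With no filter on dim probes, 10633 of 27725 genes were called, 7802 of them higher. Leaving out 1 array in turn gave 5631 to 6420 called genes, 2875 to 3333 higher and 2558 to 3087 lower; there were 122 to 159 genes detected in the Tbc1d23 line only and 83 to 217 genes detected in the CAT line only, with 217 without replicate 1 and 165 without replicate 3 of the Tbc1d23 line. With the replicate number as a block 7095 were called, and no named gene lost its call.

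Signs turned under median scaling for Sc5d (−0.05), Eng (−0.02) and Tal1 (−0.01), under normexp for Epor (−0.18), S100a8 (−0.16) and Eng (−0.04), and with the mean of a gene's probes for Sc5d (−0.64). Median scaling also ended 39 calls, Hspa5 (adjusted p = 0.107), Golga4 (0.463) and Cd14 (0.465) among them. Normexp as first planned ended 66 calls among 249 named genes, the most of any alternative. With the outlying local backgrounds replaced, normexp ended 3. The list medians given under normexp come from that second form. Within slide run 2, 9 calls ended: Blnk, Btg2, C1qb, Epor, Il7r, Itgam, Rab4a, Sc5d and Tbc1d2. Leaving out 1 array ended calls of Blnk, Epor, Pdgfrb, Sc5d and Tal1 only. Apart from the construction of each alternative, the cause was not tested. Dim probes set a bound and not a level for genes seen in 1 line only.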

Other observations

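A pair of gene families outside the lists was described after their values were seen, and neither has a test of its own. Of 31 histone genes tested, 22 were called lower in the Tbc1d23 line and 1 higher, with a median line difference of −1.25 (−1.81 under median scaling, −1.27 within slide run 2). H2bc21, a core histone of the nucleosome, read −2.26, −2.73 and −2.92 in the Tbc1d23 line, against −0.51, −0.57 and −0.48 in the CAT line. H1f2 and H4c4, a linker and a core histone, differed by −3.51 and −1.71. H1f8, the linker histone known from oocytes, was at least 12.1-fold higher. Histone genes have near-identical copies, so a probe may read more than 1 of them.

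Of 19 interleukin receptor genes, 11 were called lower and 4 higher, with a median of −0.91 (−1.46 under median scaling, −0.59 within run 2). Il4ra, the IL-4 receptor chain, read −1.59, −1.84 and −0.88 in the Tbc1d23 line, against 0.06, 0.17 and 0.03 in the CAT line. Il13ra1, its partner for IL-13, differed by −1.33. Il18rap, the accessory chain for IL-18, was higher at 3.68, with 1 of 3 CAT arrays well above background.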
